A study of Mus musculus with 2 samples.

Results

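The 10 genes described here encode transcription factors of epithelial-to-mesenchymal transition (EMT) and of embryonic mesenchyme, namely Twist1, Twist2, Snai1, Snai2, Zeb1, Zeb2, Prrx1, Msx1, Msx2 and Meox1. They were chosen by name, with earlier results of these data known, among the 24354 genes of the deposited values, and all 10 were found. These values are FPKM (fragments mapped to a gene per kilobase of its transcript, scaled for library size). RNA-seq was performed on 1 library of differentiating control ESCs (Diff–CONT) and 1 library of inducible Ino80 knockout ESCs differentiated in the same way (Diff–iKO), and mouse ESCs are pluripotent cells taken from blastocysts. The study describes both lines as homozygous for a floxed Ino80 allele, with CreER expressed from the ROSA26 locus in the knockout line alone, whereas the sample labels give the control genotype as WT. Both were grown as embryoid bodies, plated at day 4, fed from the following day with serum medium that held BMP4 and 0.5 µM 4-OHTM, the drug that activates CreER, and cultured in it for 7 days. The control was therefore exposed to the drug as well, while CreER itself was present in the knockout line only. Each condition had 1 line and 1 library, so no difference below has a replicate check and no p-value is given.

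Twist1 and Twist2 are basic helix-loop-helix (bHLH) factors, which bind DNA as dimers with E proteins. Snai1 and Snai2 (Slug) are zinc finger repressors, and Zeb1 and Zeb2 carry zinc finger clusters around a homeodomain. Snail and Zeb factors bind E-box sequences and repress Cdh1, the E-cadherin gene, and other junction genes when epithelial cells leave an epithelium, as at gastrulation and in neural crest. Prrx1, Msx1, Msx2 and Meox1 are homeobox factors of limb, craniofacial and somite mesenchyme, and Msx genes are known targets of BMP signalling.

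Ino80, the targeted gene, had an FPKM of 8.90 in Diff–CONT and 10.3 in the Diff–iKO-labelled library. FPKM per gene does not resolve the deleted exon, so this value does not check the label, and directions are given for that library as labelled. The libraries also differed at the sex chromosomes, with an FPKM of 0.0639 and 3.59 for Xist, and of the Y-linked genes 4.07 and 1.89 for Ddx3y, 4.14 and 0.664 for Uty and 2.80 and 1.10 for Eif2s3y. The steps between low FPKM values gave about 29980000 fragments for Diff–CONT and 22300000 for the Diff–iKO-labelled library. The fragments behind each gene gave exact 95% intervals, which hold counting error and none of the spread between cultures.

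The promoter sequences of 5 genes are shown first, because the factors of interest act through short DNA letters and the genes concerned were measured in the same libraries. The letters CACCTG, which read CAGGTG on the other strand, are the E-box that Snail and Zeb factors bind. Each sequence is the 250 bases before a RefSeq start site of GRCm38.p6, written 5′ to 3′ on the strand of the gene, with this E-box in capitals. Snai1 and Msx1 are the members whose windows held it. Cldn4 and Epcam, which encode a tight junction protein and an epithelial adhesion molecule, stand for the epithelial genes with the letters that were higher in the Diff–iKO-labelled library, and Rab25, a gene of vesicle traffic in epithelium, for those that were lower. The windows are Snai1 chr2:167537945-167538194 on the plus strand, Msx1 chr5:37824586-37824835 on the minus strand, Cldn4 chr5:134946935-134947184 on the minus strand, Epcam chr17:87635729-87635978 on the plus strand and Rab25 chr3:88548280-88548529 on the minus strand. The last 21 bases of the Rab25 window lie inside the GENCODE span of that gene, and the other windows lie outside the spans of theirs.
Snai1: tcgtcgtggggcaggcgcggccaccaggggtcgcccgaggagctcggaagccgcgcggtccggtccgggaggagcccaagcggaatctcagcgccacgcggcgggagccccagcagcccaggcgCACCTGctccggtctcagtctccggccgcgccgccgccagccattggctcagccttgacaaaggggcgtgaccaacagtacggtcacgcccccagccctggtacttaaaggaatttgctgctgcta
Msx1: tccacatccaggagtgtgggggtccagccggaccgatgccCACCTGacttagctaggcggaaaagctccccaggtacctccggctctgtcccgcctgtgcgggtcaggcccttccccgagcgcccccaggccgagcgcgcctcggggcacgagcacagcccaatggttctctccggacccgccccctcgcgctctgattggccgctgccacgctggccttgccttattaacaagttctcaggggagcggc
Cldn4: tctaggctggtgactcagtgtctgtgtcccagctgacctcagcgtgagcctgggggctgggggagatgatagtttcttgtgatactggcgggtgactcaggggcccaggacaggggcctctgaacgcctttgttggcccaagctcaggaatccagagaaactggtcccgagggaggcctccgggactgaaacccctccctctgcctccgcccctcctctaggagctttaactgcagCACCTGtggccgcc
Epcam: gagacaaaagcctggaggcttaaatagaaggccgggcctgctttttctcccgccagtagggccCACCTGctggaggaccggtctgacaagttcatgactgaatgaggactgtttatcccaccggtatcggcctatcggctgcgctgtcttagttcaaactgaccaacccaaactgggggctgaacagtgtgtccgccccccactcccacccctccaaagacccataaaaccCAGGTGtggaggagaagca
Rab25: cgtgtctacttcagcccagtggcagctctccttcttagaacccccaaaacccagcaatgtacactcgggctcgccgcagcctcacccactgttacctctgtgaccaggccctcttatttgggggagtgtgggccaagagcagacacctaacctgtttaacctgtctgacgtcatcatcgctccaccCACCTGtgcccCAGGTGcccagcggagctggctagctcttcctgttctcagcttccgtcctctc

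The E-box began 126 bases before the start site of Snai1, 210 before that of Msx1, 14 before that of Cldn4, 187 and 19 before that of Epcam, and 64 and 53 before that of Rab25. Windows were on hand for 7 of the 10 members, and 2 of these genes held the letters. Of 20 listed genes of epithelium, mostly junction and keratin genes, 14 had a window, and Cdh1 was not among them. Of these 14, 11 held the letters (78.6%). The share was 19.4% of the 27025 genes with any window and 18.3% of the 9424 that also reached an FPKM of 2. Of 9 matrix and adhesion genes of mesenchyme with a window, 0 held them. A match is a description of letters and does not show binding in these cells.

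All 10 factors were at a lower level in the Diff–iKO-labelled library than in Diff–CONT. Their summed FPKM was 114 in Diff–CONT and 65.6 in the Diff–iKO-labelled library, which is 57.5% of the control level. With the cut-off of the study, FC ≥ 2 with FPKM ≥ 2, the latter read here as reached in at least 1 library, 9 of the 10 genes reached the FPKM minimum, and 4 of these (Msx1, Twist2, Snai2 and Prrx1) were past the cut-off and lower. Over all 12376 genes that reached the minimum, 8.39% were past the cut-off and lower. None of the 9 was past it and higher, against 6.73% of all genes. All 9 had a log2 ratio under 0, as did 50.3% of all genes. The counting interval lay wholly under 0 for each of the 9, as it did for 39.2% of the 11907 genes with a matched transcript length. The median log2 ratio of FPKM + 0.1 was -0.91 over the 10 genes and -0.01 over the 13145 genes whose mean FPKM was at least 1. In RNA from whole cultures, fewer cells of a type and less RNA per cell cannot be told apart.

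**Figure D1:**
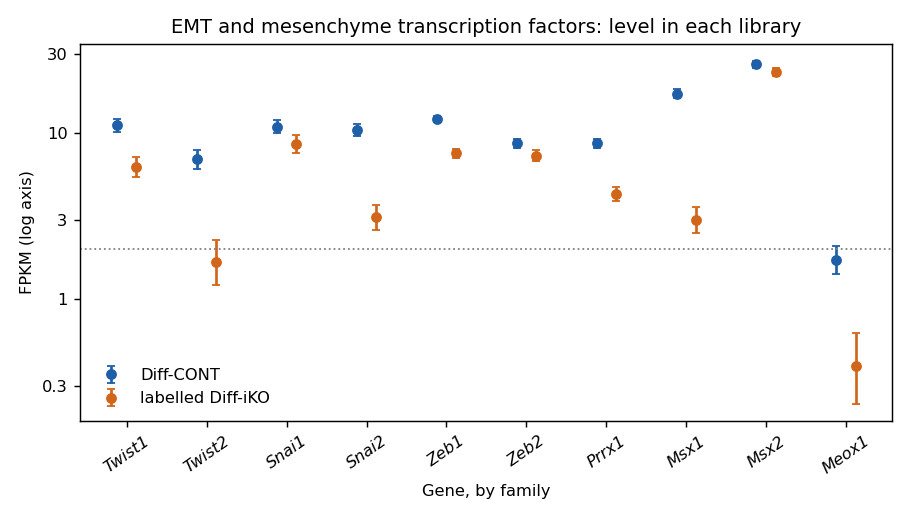
FPKM of the 10 genes on a log axis, with 1 point per library (blue, Diff–CONT, and orange, the Diff–iKO-labelled library) and bars for the exact 95% counting interval. The orange point is the lower of each pair, with the widest gap at Msx1 (17.3 and 3.01) and the narrowest at Msx2 (25.9 and 23.3), and the dotted line marks the FPKM minimum of 2.

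Of the Twist factors, Twist1 is needed for cranial mesenchyme and spans 33957671 to 33959829 of chromosome 12 (GRCm38). It was at an FPKM of 11.2 in Diff–CONT (counting interval 10.2 to 12.2, from 483 fragments). In the Diff–iKO-labelled library it was 6.26 (5.42 to 7.18, from 202 fragments). The log2 ratio was -0.84 and not past the cut-off of -1, which its interval (-1.08 to -0.60) reaches. Twist2, a factor of dermal and other connective tissue precursors at 91801461 to 91848028 of chromosome 1, was 6.98 in Diff–CONT and 1.66 in the Diff–iKO-labelled library. It kept 23.8% of the control level, a log2 ratio of -2.07 (interval -2.56 to -1.58), and rested on 43 fragments in the Diff–iKO-labelled library. Both Twist genes were lower, with intervals of the ratio that do not overlap.

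Among the Snail factors, Snai1, which acts at gastrulation and spans 167538195 to 167542814 of chromosome 2, reached an FPKM of 10.9 in Diff–CONT and 8.62 in the Diff–iKO-labelled library. Its log2 ratio was -0.34 (interval -0.57 to -0.13), short of the cut-off. Snai2, a factor of neural crest and mesenchyme at 14705852 to 14709385 of chromosome 16, stood at 10.4 and 3.13. Its log2 ratio of -1.74 (interval -2.03 to -1.46) was past the cut-off. The Snail genes thus had like levels in Diff–CONT, where their counting intervals overlap, and unlike levels in the Diff–iKO-labelled library. Snai3, the remaining Snail gene, was at 0.855 and 1.78, in the opposite direction and under the FPKM minimum.

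Both Zeb genes were lower without reaching the cut-off. Zeb1, on chromosome 18, had an FPKM of 12.1 in Diff–CONT and 7.57 in the Diff–iKO-labelled library, a log2 ratio of -0.68 (interval -0.79 to -0.57). Zeb2, at 44983632 to 45117395 of chromosome 2, was 8.67 and 7.31, a log2 ratio of -0.25 (interval -0.39 to -0.10). Among the deposited values, 2 genes overlap Zeb2 and 1 overlaps Zeb1. The antisense gene Zeb2os, which overlaps Zeb2, was at 0.836 and 0.439. The study used a stranded library kit, but the strand setting of the counting is not given. Reads of the overlapping genes may therefore not be separated.

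The homeobox genes held the largest and the smallest differences among the 10. Msx1, at 37820485 to 37824583 of chromosome 5, reached an FPKM of 17.3 in Diff–CONT (from 906 fragments) and 3.01 in the Diff–iKO-labelled library (from 118 fragments). It kept 17.4% of the control level, a log2 ratio of -2.52 (interval -2.81 to -2.24), and 1.07% of all genes at or above the FPKM minimum had a lower ratio. Msx2, at 53466884 to 53473074 of chromosome 13, was 25.9 and 23.3, a log2 ratio of -0.15 (interval -0.26 to -0.05). Prrx1, a factor of limb bud and craniofacial mesenchyme at 163245119 to 163313710 of chromosome 1, stood at 8.66 and 4.30. The log2 ratio of -1.01 was past the cut-off, but its interval (-1.17 to -0.86) reaches across it, and the value was -0.99 with a pseudocount of 0.1. Meox1, a somite factor at 101877510 to 101894374 of chromosome 11, was scarce, at 1.73 and 0.397, and stayed under the FPKM minimum. Its log2 ratio was -2.12 (interval -2.95 to -1.41), from 106 and 18 fragments.

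**Figure D2:**
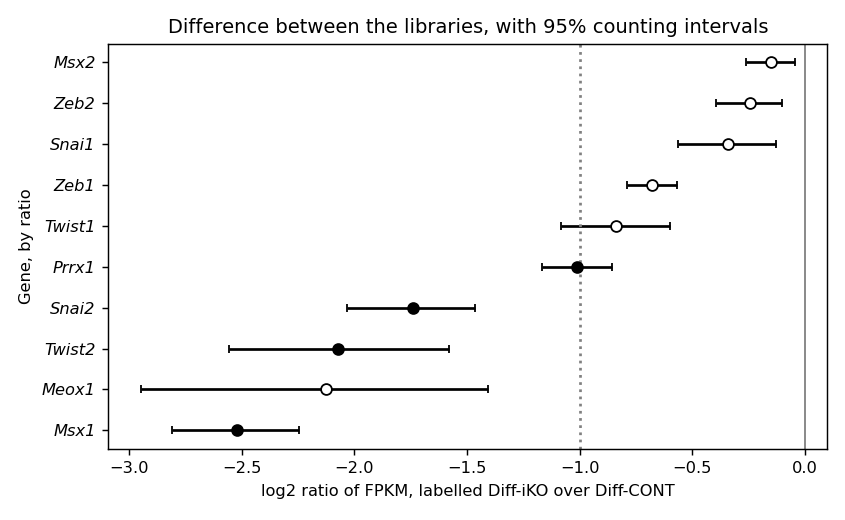
The log2 ratio of FPKM (library labelled Diff–iKO over Diff–CONT) for each gene, with its exact 95% counting interval. Filled points (Msx1, Twist2, Snai2 and Prrx1) are past the cut-off, open points are not, and Meox1 at -2.12 is open because it lies under the FPKM minimum. The dotted line marks a log2 ratio of -1.

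FPKM is a value per transcript length, so the levels of the genes can be ordered. In Diff–CONT the order ran from Msx2 and Msx1 through Zeb1, Twist1, Snai1, Snai2, Zeb2, Prrx1 and Twist2 to Meox1. The counting intervals of each gene and the next overlapped from Zeb1 to Snai2 and between Zeb2 and Prrx1, so these neighbours were not separated, although the interval of Zeb1 (11.6 to 12.7) lay above that of Snai2 (9.60 to 11.3). In the Diff–iKO-labelled library the order was Msx2, Snai1, Zeb1, Zeb2, Twist1, Prrx1, Snai2, Msx1, Twist2 and Meox1, with overlap of each gene and the next from Snai1 to Twist1 and between Snai2 and Msx1. The interval of Snai1 (7.63 to 9.70) lay above that of Twist1 (5.42 to 7.18). Msx2 was the highest gene in both libraries and Meox1 the lowest. Msx1 stood at rank 2 in Diff–CONT and at rank 8 in the Diff–iKO-labelled library. Msx2 made up 22.7% of the summed FPKM of the 10 genes in Diff–CONT and 35.6% in the Diff–iKO-labelled library, whereas the share of Msx1 was 15.2% and 4.6%.

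The ratio of paralogs within a library does not depend on how the libraries were scaled. Msx1 stood at 0.668 of the Msx2 level in Diff–CONT and at 0.129 in the Diff–iKO-labelled library, a change in log2 ratio of -2.37 (counting interval -2.68 to -2.07). Snai1 and Snai2 stood at a ratio of 1.05 in Diff–CONT and of 2.76 in the Diff–iKO-labelled library, a change of 1.40 (interval 1.04 to 1.76). For Twist1 over Twist2 the ratios were 1.61 and 3.77, a change of 1.23 (interval 0.67 to 1.77). In these pairs the balance moved toward Msx2, Snai1 and Twist1 by more than counting error. The Zeb1 over Zeb2 ratio changed less, from 1.40 to 1.03 (change -0.43, interval -0.62 to -0.25). Prrx2, the paralog of Prrx1, had an FPKM of 18.8 and 11.8, and the Prrx1 over Prrx2 ratio changed by -0.34 (interval -0.59 to -0.09). Meox2 was at 0.724 and 0.124, and the interval of the Meox1 over Meox2 change (0.43, interval -1.10 to 2.12) includes 0.

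**Figure D3:**
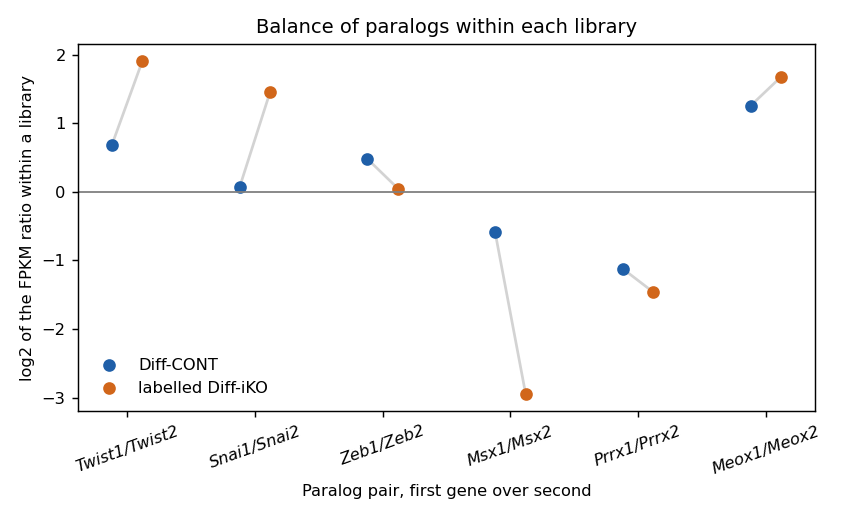
The log2 of the FPKM ratio within a library for 6 paralog pairs, the first-named gene over the other, in Diff–CONT (blue) and in the Diff–iKO-labelled library (orange). The longest line is that of Msx1/Msx2, from -0.58 to -2.95, and the lines of Twist1/Twist2, Snai1/Snai2 and Meox1/Meox2 run upward, the last with a counting interval of its change that includes 0.

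Other genes were read from 22 lists, which hold partners, regulators and targets of the factors and markers of other cell types. The lists too were chosen with earlier results of these data known. Of all genes at or above the FPKM minimum, 8.39% were past the cut-off and lower and 6.73% past it and higher, and each list count below stands against these shares. Twist proteins pair with the E proteins Tcf3, Tcf4 and Tcf12, and all 3 were lower without passing the cut-off. Tcf12 was nearest to it, at an FPKM of 48.1 and 24.4 (log2 ratio -0.98, interval -1.11 to -0.86). The Id proteins bind E proteins and keep them off DNA. All 4 Id genes were lower too, from -0.57 for Id3 (237 and 160) to -0.84 for Id1 (117 and 65.3), and none was past the cut-off. Of 8 other bHLH genes of mesoderm, 6 reached the FPKM minimum, of which 4 were past the cut-off and lower and 2 past it and higher. Hand1 was at 70.8 and 31.3, and Hand2, a factor of heart and limb mesenchyme, at 9.07 and 1.41 (log2 ratio -2.68, interval -3.08 to -2.33). Tcf21 was at 3.49 and 0.128 (log2 ratio -4.77, interval -7.12 to -3.24, from 113 and 3 fragments). Scx, a tendon factor, was at 2.88 and 1.17. Against them, Tcf15, a factor of paraxial mesoderm and of ESCs primed to differentiate, was at 1.39 and 13.2, and Msc at 0.392 and 5.04.

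BMP and TGF-beta signals are known inducers of these factors. Of 17 BMP pathway genes, 16 reached the FPKM minimum, and 6 were past the cut-off and lower (8.39% of all genes at or above the minimum) and 0 past it and higher (6.73%). The ligands Bmp2 (11.1 and 2.61), Bmp4 (43.7 and 12.4), Bmp5 (8.23 and 2.09) and Bmp7 (12.4 and 4.30) were among the 6, with Smad9 (2.99 and 0.876) and the decoy receptor gene Bambi (12.1 and 4.23). The receptor gene Bmpr1a was at 44.3 and 34.3, Acvr1 at 18.5 and 17.8 and Bmpr2 at 14.3 and 15.5, none past it. BMP4 protein was a component of the medium of both cultures. Of 8 TGF-beta genes, Tgfbr1 (18.3 and 8.88) and Tgfbr3 (14.5 and 5.45) were past the cut-off and lower, and 0 were past it and higher. The ligand genes Tgfb1 (25.2 and 15.4), Tgfb2 (27.8 and 27.5) and Tgfb3 (12.1 and 6.41) were short of the cut-off, and the median log2 ratio of the 8 was -0.60.

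Genes of the epithelial state were mixed. Of 20 epithelial genes (junction, keratin, membrane protease and vesicle traffic genes), 13 had a higher and 7 a lower value in the Diff–iKO-labelled library, with a median log2 ratio of 0.48. Past the cut-off were 3 higher (against 6.73% of all genes at or above the FPKM minimum) and 2 lower (against 8.39%). Cdh1 was at an FPKM of 166 in Diff–CONT and 268 in the Diff–iKO-labelled library (log2 ratio 0.69, interval 0.66 to 0.71), short of the cut-off. Cldn4, whose promoter is printed above, was at 76.2 and 208 (1.45, interval 1.39 to 1.51), Krt7 at 39.2 and 86.4 and Pkp3, a desmosomal plaque gene, at 7.58 and 16.5. Epcam, with 2 E-boxes in its window, was at 79.0 and 116. Rab25 (7.63 and 2.55) and Ocln (9.58 and 4.17) were past the cut-off and lower, and Cldn6, a tight junction gene, was at 174 and 87.6, just short of it. Of the 11 epithelial genes with the E-box letters in a window, 5 had a higher and 6 a lower value, and the 3 with a window and no such letters had higher values. Of 10 regulators of the epithelial state, 8 reached the FPKM minimum, 5 with higher and 3 with lower values and a median log2 ratio of 0.69. Klf5 (9.57 and 20.8) and the splicing factor gene Esrp2 (log2 ratio 1.30) were past the cut-off and higher, and 0 were past it and lower. Elf3, an epithelial ETS factor gene, was at 9.48 and 18.6, Esrp1 at 16.7 and 11.0 and Grhl2 at 6.51 and 5.66, all short of it.

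The 19 matrix, adhesion and cytoskeletal genes of mesenchyme were mixed. The median log2 ratio was -0.36, with 14 genes lower and 5 higher, whereas their summed FPKM was 4463 in Diff–CONT and 5207 in the Diff–iKO-labelled library. The larger sum was carried by abundant matrix genes short of the cut-off, Fn1 (672 and 1150), Sparc (708 and 1244) and Col1a1 (880 and 1199). Past the cut-off and lower were the growth factor receptor gene Pdgfra (19.1 and 4.65), Lum (46.3 and 8.00), Dcn (73.2 and 33.9), Postn (174 and 81.8) and Col3a1 (386 and 187). S100a4 (7.88 and 27.2) was past it and higher, 1 gene of 19 against 6.73% of all genes, and the 5 lower ones stand against 8.39%. Vim, the vimentin gene, was at 563 and 560, with an interval of its log2 ratio from -0.03 to 0.02. Of 15 other transcription factors of mesenchyme, 9 reached the FPKM minimum and 6 of them were past the cut-off and lower (8.39% of all genes), among them Pitx1 (7.66 and 0.769), Foxf1 (5.42 and 1.37), Nr2f1 (10.4 and 3.06) and Nr2f2 (8.86 and 3.20), and none was past it and higher. The median over the 12 of these whose mean FPKM was at least 1 was -1.14.

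**Figure D4:**
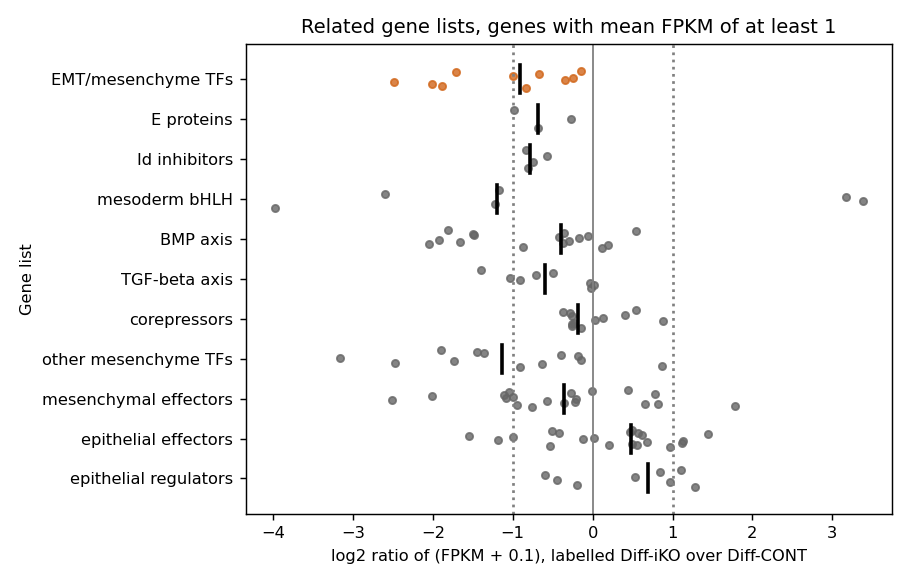
The log2 ratio of FPKM + 0.1 (library labelled Diff–iKO over Diff–CONT) for the 10 genes (orange) and the genes of related lists (grey), with 1 point per gene of mean FPKM of at least 1 and a black bar at the list median. The bars lie at -0.91 for the 10 genes, -1.14 for other mesenchyme factors and 0.48 for epithelial effectors, and the dotted lines mark log2 ratios of -1 and 1.

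Markers of other cell types also differed between the libraries. Of 8 markers of pluripotent cells, all 8 were higher and 7 past the cut-off, and their summed FPKM was 446 in Diff–CONT and 2849 in the Diff–iKO-labelled library. The pluripotency factor gene Pou5f1 was at 60.8 and 247 and Nanog at 19.5 and 81.2. Of 8 markers of visceral endoderm, 7 were past the cut-off and lower, with a summed FPKM of 218 and 8.08, and Alb was close to 0 in both libraries. Of 10 cardiomyocyte markers, 5 were past the cut-off and lower, with a sum of 77.8 and 21.8, and Myl2 was close to 0 in both. Of 6 smooth muscle markers, 3 had higher and 3 lower values. Cnn1 (8.71 and 19.0) was past the cut-off and higher, and Des (9.09 and 4.69), Myocd (1.13 and 0.344) and Myh11 (1.19 and 0.752) were lower in value without passing it. Their sum of 513 and 807 came mostly from Acta2 (263 and 337) and Tagln (230 and 445). Of 9 endothelial markers, 5 were past the cut-off and lower and 2 past it and higher. The part of these shifts in the levels of the 10 factors was not tested.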

How the data were processed

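Poly(A) RNA of 2 libraries, 1 per condition, was compared. According to the submitters' processing notes and the study's methods, the authors mapped reads to mm10 with STAR 2.7.9a and deposited FPKM values made with Cuffquant and Cuffnorm of Cufflinks 2.2.1. The library kit was a stranded one according to the study. The annotation, strand setting of the counting and library scaling are not given in the sources used here. Of the deposited columns, 0 others were present and 0 symbols were repeated, so rows were not summed.

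The log2 ratio of FPKM was taken without a pseudocount for single genes, and with 0.1 for medians. The cut-off was FC ≥ 2 with FPKM ≥ 2 in at least 1 library. Fragments were recovered from the steps of low FPKM values of 13085 genes that have 1 RefSeq transcript, 1000 nucleotides or longer. Of the low values, 86.8% and 86.0% lay within 0.2 of a whole number, against 40% by chance. Fragments use the shortest GENCODE vM21 transcript with a RefSeq match. They and their intervals are approximate for genes that have several, namely Zeb2 and Prrx1 of the members and list genes such as Tcf12 and Suz12. Intervals are exact (Clopper-Pearson for ratios, Poisson for levels, conditional odds ratio for paralogs). The steps were tested on simulated counts with 1 transcript length per gene, as the fit assumes. That test cannot show that the assumption holds for the deposited values.

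Named genes were the members, their paralogs, overlapping genes and, from each list, genes past the cut-off and those of highest FPKM; Snai3, Epcam, Vim and other genes short of the cut-off, and the sex-linked genes, were named after their values were seen. Not all are printed. Members and lists were chosen with earlier results of these data known. Promoters are from RefSeq (GRCm38.p6). Computation used scipy 1.17.1, numpy 2.4.6 and pandas 2.3.3 under Python 3.11.15, and matplotlib 3.10.9 drew the figures.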

Additional observations from a re-analysis of the deposited data

How the results depend on the processing

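Pseudocounts of 0.1 and 1, added to both values, cannot change the sign of a log2 ratio. The 3 other scalings (same sum, same upper quartile, median log2 ratio of 0) shifted every log2 ratio by -0.094, 0.018 and -0.006. These shifts are smaller than the smallest member difference, a log2 ratio of -0.15 for Msx2. All 10 factors thus stayed lower in the Diff–iKO-labelled library in all 50 alternatives, which could not test the direction. The size did change, since a pseudocount of 1 moved the log2 ratio of Meox1 from -2.12 to -0.97 and that of Msx1 from -2.52 to -2.19. The number past the cut-off and lower became 2 with an FC of 4, and was within 1.5 times of 4 otherwise. Scaling to the same sum, which lowers every log2 ratio by 0.09, moved the median of the mesenchymal effectors from -0.36 to -0.45 and of the BMP genes from -0.39 to -0.49, about that same shift. A pseudocount of 1 moved the Msx1 over Msx2 change to -2.04 and reversed the Meox1 over Meox2 change to -0.35. The median of the 6 family relatives (0.16 over 2 genes) reversed to -0.022 with a pseudocount of 1, to -1.07 with a minimum mean FPKM of 0.5 and to -0.66 with a minimum of 5. The endothelial median reversed from -1.23 to 0.25 with a minimum mean FPKM of 5, and the smooth muscle median from 0.66 to -0.12 with a minimum of 0.5, where the genes counted are different. No paired analysis was possible because each condition has 1 library. Of the 10 factors, Meox1 and Twist2 rest on the fewest fragments in the Diff–iKO-labelled library, 18 and 43.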

Other observations

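The 12 corepressor and Polycomb genes known to act with Snail and Zeb factors, such as Ctbp1, Kdm1a and Hdac1, had a median log2 ratio of -0.19 and 0 of them were past the cut-off. Suz12, a Polycomb subunit gene of that list, was at an FPKM of 36.5 in Diff–CONT and 67.5 in the Diff–iKO-labelled library (log2 ratio 0.89, counting interval 0.83 to 0.94). Among 12 genes that set the stability of Snail protein, 11 had a log2 ratio under 0 (50.3% of all genes at or above the FPKM minimum), Lats2 with 11.9 in both libraries among them. Of these, 1 was past the cut-off, Prkd1 (4.42 and 2.10), and the median of the list was -0.32.

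Genes of neural crest, a lineage in which Twist1, Snai2, Msx1 and Zeb2 are also known to act, went in different directions. Sox9 (6.08 and 2.91) and Tfap2a (3.80 and 1.66) were past the cut-off and lower, and Foxd3 (1.51 and 3.22) and the receptor gene Ngfr (3.23 and 9.91) past it and higher. Foxd3 is also expressed in pluripotent cells. Sox10, a marker of migrating neural crest, was at 0.817 and 0.0706 (from 62 and 4 fragments), under the FPKM minimum.

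Of the 10 paraxial mesoderm and sclerotome genes, the field of Meox1, 2 reached the FPKM minimum. Foxc1 (3.92 and 1.68) was past the cut-off and lower, and Pax3 was at 4.09 and 3.46. Of 4 skeletal muscle genes, 0 reached the minimum, and Myf5 was listed at 0 in both libraries. Of 6 neural markers, 0 were past the cut-off, and of 6 trophoblast markers 3 (Prl3d1, Tpbpa and Prl2c2) were past it and higher and Cdx2 (4.00 and 0.705) past it and lower.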
